A study of Caenorhabditis elegans with 20 samples.

Results

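The 8 genes that encode the subunits of the C. elegans DREAM complex were followed in the RNA of L3 larvae. They were chosen by name, as the rows of lin-35 (C32F10.2), efl-1 (Y102A5C.18), dpl-1 (T23G7.1), lin-9 (ZK637.7), lin-37 (ZK418.4), lin-52 (ZK632.13), lin-53 (K07A1.12) and lin-54 (JC8.6) in the expression table, and are 8 of its 15568 genes. All 8 passed the filter on low values (a mean of at least 1 RPKM, read counts scaled to gene model length and library depth), as did 9679 genes in all, and each stood above 1 RPKM in every library.

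RNA-seq was carried out on 3 genotypes (2 libraries each) of whole larvae at the L3 stage, grown at 20°C as mixed populations of males and hermaphrodites after hatching in buffer for 24 to 42 h. The lin-35 larvae (strain JA1507) carried lin-35(n745), a nonsense allele. The htz-1 larvae (strain VC2490 by the labels, VC2480 by the study's methods) were homozygous for htz-1(ok3099), a mutation in the gene of the histone variant HTZ-1/H2A.Z. They came from heterozygous mothers that carried the balancer nT1[qIs51], so that they still held maternal HTZ-1, and were isolated as larvae without GFP on a worm sorter. N2 is the wild type reference strain. Larvae of the other genotypes were purified by a sucrose gradient with no sorting step, so that sorting and the htz-1 genotype cannot be told apart. Whether replicate libraries were made from independent cultures is given neither in the labels nor in the methods, and p-values therefore cover only the spread seen between them, possibly technical in origin.

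DREAM is a repressor complex that is conserved from worms to humans and is best known for holding down cell cycle genes in cells that are not dividing. It joins a pocket protein of the Rb family to an E2F/DP pair that binds DNA, and links both to a core of 5 proteins called MuvB. In C. elegans its subunits belong to the synthetic multivulva class B genes, which keep vulval cell fates in check and keep germline genes off in somatic cells.

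The libraries held 13604791 to 18301926 reads by the steps of the RPKM values, of which 73.9% to 77.2% lay in listed genes. The 8 subunit genes had between 78 and 2486 reads per library and stood between percentiles 55.1 and 95.4 of the listed genes. In 23 of 24 pairs of libraries of the same genotype a subunit differed by less than 1.2-fold, and the exception was efl-1 in htz-1 larvae (1.40-fold). Levels are given below as deposited RPKM. Differences are log2 fold changes from limma on log2(RPKM + 0.5), after each library was divided by a size factor (0.946 to 1.11). On this scale the change of low genes is understated, and in whole larvae more expressing cells and more RNA per cell cannot be told apart. Without the size factors the median of all tested genes was 0.15 in lin-35 against N2 and 0.16 in lin-35 against htz-1, against medians of -0.01 and 0.0002 with them. With the size factors 51.1% of the genes called in lin-35 against N2 and 51.4% of those called in lin-35 against htz-1 were higher, and without them 75.1% and 73.7% were.

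The transcript of the mutated htz-1 gene stood at 65.6 and 27.8 RPKM in htz-1 larvae and at 78.5 and 81.3 RPKM in N2 larvae, with a log2 fold change of -0.90 (standard error 0.33, adjusted p = 0.0762, limma). The first htz-1 library thus lay close to N2 and did not check the label by itself, and values in htz-1 larvae are also given without it for the 8 subunits and, as counts, for the gene lists. In lin-35 larvae the htz-1 transcript was measured at 138 and 155 RPKM (log2 fold change 0.69 against N2, adjusted p = 0.183, limma). Both lin-35 libraries lay above both N2 libraries, before and after scaling. The standard error of 0.33 is pooled over the 3 genotypes, and replicates differed most in htz-1 larvae (65.6 and 27.8 RPKM). This p-value therefore cannot decide whether the transcript was raised in lin-35 larvae, since it carries the spread of a genotype outside the comparison. A nonsense mutation leaves the gene in place, so the lin-35 transcript does not check the lin-35 label either.

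In lin-35 larvae 4 of the 8 subunit genes were higher than in N2 and 0 were lower at an adjusted p under 0.05 (limma), where 12.1% of all tested genes were higher and 11.6% lower. Those that rose were both members of the E2F/DP pair, efl-1 and dpl-1, and the MuvB genes lin-9 and lin-53. The pocket protein gene lin-35 and the MuvB genes lin-37, lin-52 and lin-54 had log2 fold changes between -0.04 and 0.05. Over the 8 genes the median was 0.37, against -0.01 over all genes tested. At an unadjusted p under 0.05 and in limma-voom on recovered reads 0 of the 8 were lower as well. After scaling, both lin-35 libraries lay above both N2 libraries for 4 subunit genes and below them for 0, as they did for 30.9% and 32.6% of all tested genes.

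**Figure D1:**
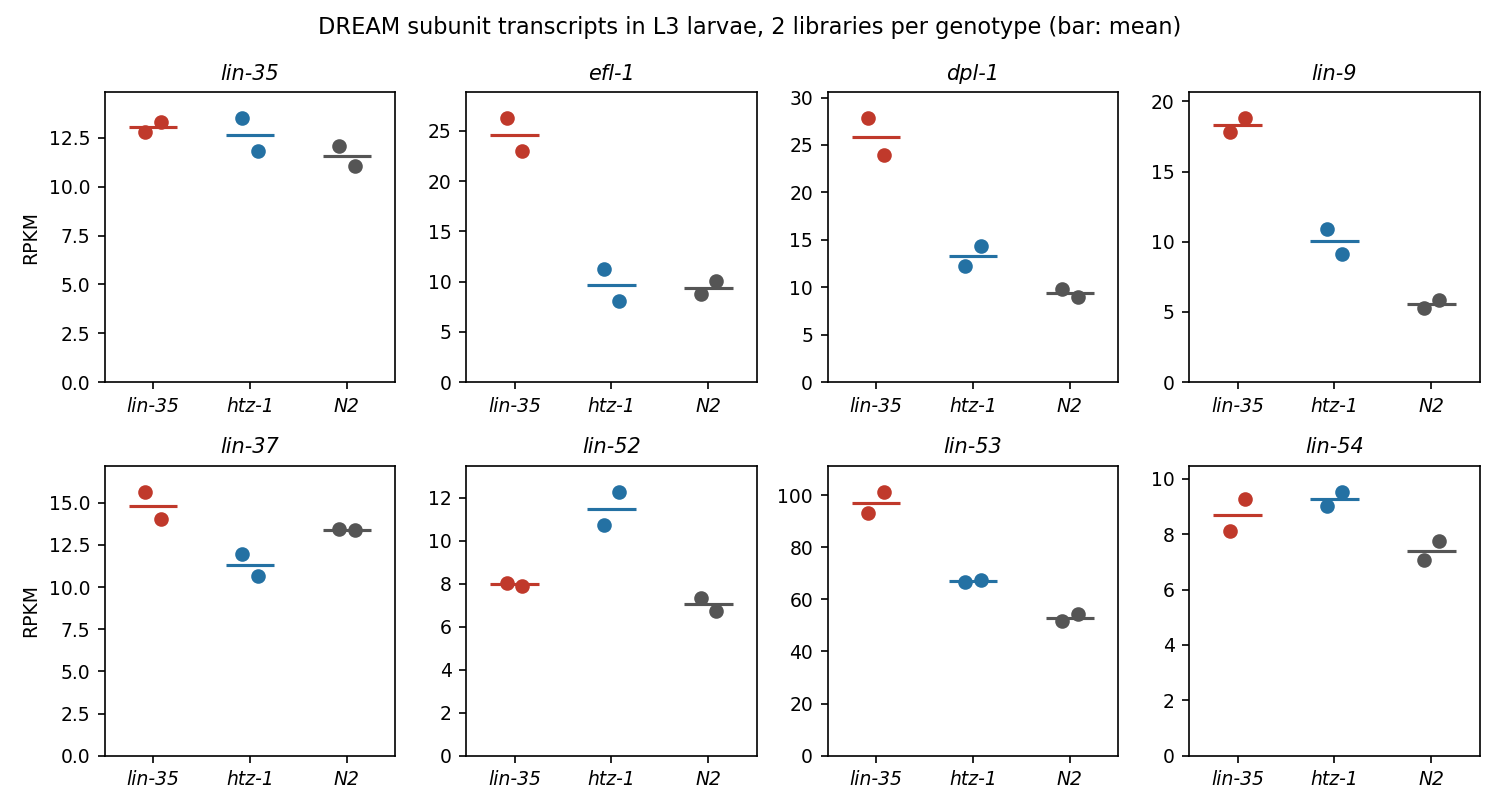
RPKM of each DREAM subunit transcript in the 2 lin-35, 2 htz-1 and 2 N2 libraries, with 1 point per library, a bar at the mean of each genotype and a separate vertical axis from 0 for each gene. For efl-1, dpl-1, lin-9 and lin-53 both lin-35 points lie above all points of the other genotypes, as they do for lin-37, which did not pass the test after scaling, and for lin-52 both htz-1 points lie highest.

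lin-35 encodes the only pocket protein of the worm, related to human Rb, p107 and p130. Its transcript was at 12.8 and 13.3 RPKM in lin-35 larvae, 13.5 and 11.8 RPKM in htz-1 larvae and 12.1 and 11.1 RPKM in N2 larvae. After scaling, the libraries of the 3 genotypes overlapped. The log2 fold change was -0.01 in lin-35 against N2 (95% interval -0.28 to 0.27, adjusted p = 0.977, limma) and 0.11 in htz-1 against N2 (-0.16 to 0.39, adjusted p = 0.489), or 0.05 without the first htz-1 library. In the reference annotation the gene overlaps C32F10.4 and hmg-3, and the strand setting of the counting is not given in the sources used here. Whether these overlaps add reads to the lin-35 value or remove them was not tested.

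efl-1 encodes the E2F protein of the complex, a transcription factor of the E2F4 and E2F5 type. It was at 26.2 and 22.96 RPKM in lin-35 larvae, 11.3 and 8.04 RPKM in htz-1 larvae and 8.79 and 10.03 RPKM in N2 larvae. Both lin-35 libraries lay above all others, while the htz-1 and N2 libraries overlapped. The rise in lin-35 against N2 was 1.17 on the log2 scale (standard error 0.17, adjusted p = 0.00293, limma), or 2.24-fold. In htz-1 against N2 the difference was 0.01, with a 95% interval of -0.38 to 0.40 (adjusted p = 0.962, limma). It was -0.19 without the first htz-1 library and kept missing the threshold (adjusted p = 0.406). The test of the mutants against each other placed efl-1 higher in lin-35 than in htz-1 larvae by 1.15 (adjusted p = 0.0032, limma).

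dpl-1 encodes the DP protein, the partner with which E2F proteins bind DNA. It was at 27.8 and 23.9 RPKM in lin-35 larvae, 12.2 and 14.4 RPKM in htz-1 larvae and 9.82 and 9.01 RPKM in N2 larvae. The genotypes did not overlap, with lin-35 highest and N2 lowest. Against N2, dpl-1 rose by 1.23 in lin-35 (standard error 0.13, adjusted p = 0.000938, limma) and by 0.47 in htz-1 (standard error 0.13, adjusted p = 0.0359), and it was 0.77 higher in lin-35 than in htz-1 larvae (adjusted p = 0.00671). In htz-1 against N2 the call held without the first htz-1 library (0.61, adjusted p = 0.0281) and was lost without either N2 library, without the second htz-1 library, with no filter and with no variance trend (adjusted p up to 0.178). dpl-1 overlaps T23G7.2 in the reference annotation, and T23G7.2 was itself higher in htz-1 than in N2 larvae by 1.01 (adjusted p = 0.00217, limma) but not past the test in lin-35 against N2 (0.17, adjusted p = 0.384). Whether this overlap adds reads to the dpl-1 value or removes them was not tested.

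lin-9 encodes a MuvB protein that holds the complex together. It stood at 17.8 and 18.8 RPKM in lin-35 larvae, 10.9 and 9.16 RPKM in htz-1 larvae and 5.26 and 5.84 RPKM in N2 larvae. No genotype overlapped another, and the mean of lin-35 larvae was 3.30 times and that of htz-1 larvae 1.81 times the N2 mean in RPKM. After scaling, lin-9 was higher than in N2 by 1.47 in lin-35 larvae (standard error 0.13, adjusted p = 0.000475, limma) and by 0.79 in htz-1 larvae (standard error 0.13, adjusted p = 0.00576). The rise in lin-35 larvae was the largest among the 8 genes with all libraries in the fit, and so was that in htz-1 larvae, although there lin-52 was higher without the first htz-1 library (0.79, against 0.70 for lin-9). In lin-35 against N2 the lin-9 value exceeded that of 96.2% of tested genes. lin-9 was also 0.67 higher in lin-35 than in htz-1 larvae (adjusted p = 0.0111, limma), which was lost without the second htz-1 library (adjusted p = 0.0644). The htz-1 call held without the first htz-1 library (0.70, adjusted p = 0.0269) and narrowly missed the threshold without the first N2 library (adjusted p = 0.0522).

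lin-53 encodes a histone binding protein of the RBBP4 family that works in several chromatin complexes besides DREAM. It was the most abundant of the 8 transcripts, with 93.0 and 101 RPKM in lin-35 larvae, 66.6 and 67.4 RPKM in htz-1 larvae and 51.8 and 54.2 RPKM in N2 larvae. The genotypes did not overlap. lin-53 rose against N2 by 0.69 in lin-35 larvae (standard error 0.09, adjusted p = 0.00262, limma) and by 0.33 in htz-1 larvae (standard error 0.09, adjusted p = 0.0371). It was 0.36 higher in lin-35 than in htz-1 larvae (adjusted p = 0.0292, limma), a call that was lost in 7 of 15 alternatives: without either N2 library, without either htz-1 library, without the second lin-35 library, with no variance trend and with only the 2 genotypes compared (adjusted p up to 0.0974). The htz-1 call was lost when any N2 or htz-1 library was left out, with a value of 0.37 and an adjusted p of 0.0673 without the first htz-1 library. Its neighbour and close paralog rba-1 stood at 36.9 and 38.0 RPKM in lin-35 larvae, 30.6 and 27.8 RPKM in htz-1 larvae and 22.0 and 23.3 RPKM in N2 larvae, and rose against N2 by 0.54 in lin-35 (adjusted p = 0.00805, limma) and by 0.35 in htz-1 (adjusted p = 0.0319). Reads of these similar genes may be shared, so both values are uncertain. The ratio of lin-53 to rba-1 was between 2.17 and 2.66 in the 6 libraries.

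lin-37 encodes another MuvB protein. It was at 15.6 and 14.0 RPKM in lin-35 larvae, 11.98 and 10.7 RPKM in htz-1 larvae and 13.4 and 13.4 RPKM in N2 larvae. In htz-1 larvae both libraries lay below both N2 libraries, with a log2 fold change of -0.24 (95% interval -0.51 to 0.02, adjusted p = 0.133, limma) that did not pass the test, and it was -0.30 without the first htz-1 library. In lin-35 against N2 the value was -0.04 (-0.30 to 0.23, adjusted p = 0.855).

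lin-54 encodes the MuvB protein that binds DNA directly. It was at 8.12 and 9.28 RPKM in lin-35 larvae, 9.03 and 9.53 RPKM in htz-1 larvae and 7.05 and 7.75 RPKM in N2 larvae. Neither comparison with N2 passed the test, with 0.05 in lin-35 (95% interval -0.29 to 0.38, adjusted p = 0.848, limma) and 0.30 in htz-1 (-0.03 to 0.64, adjusted p = 0.147), or 0.37 without the first htz-1 library. In lin-35 against htz-1 it was at -0.25 (adjusted p = 0.216, limma), with both scaled lin-35 libraries below both htz-1 libraries. Differences smaller than these intervals could not be detected with 2 libraries per genotype.

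lin-52 encodes a small MuvB protein that in humans docks the pocket protein onto the core. It stood at 8.03 and 7.91 RPKM in lin-35 larvae, 10.7 and 12.3 RPKM in htz-1 larvae and 7.34 and 6.73 RPKM in N2 larvae. Both htz-1 libraries lay above all the others, whereas the lin-35 and N2 libraries overlapped after scaling. Against N2, lin-52 was higher by 0.66 in htz-1 larvae (standard error 0.13, adjusted p = 0.0111, limma), and the value in lin-35 larvae was 0.00135 (95% interval -0.32 to 0.32, adjusted p = 0.997). It was lower in lin-35 than in htz-1 larvae by -0.66 (standard error 0.13, adjusted p = 0.012, limma), the only call in that direction among the 8 genes. The call in htz-1 against N2 held without the first htz-1 library (0.79, adjusted p = 0.0177) and was lost without the second (0.55) or without either N2 library, with an adjusted p up to 0.0795 (limma). The lower call in lin-35 against htz-1 was lost without the first lin-35 library or the second htz-1 library (adjusted p up to 0.0683). lin-52 had the fewest reads of the 8 genes, with 92 and 92 in lin-35, 143 and 128 in htz-1 and 103 and 78 in N2 larvae, and it overlaps arl-5 in the reference annotation.

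**Figure D2:**
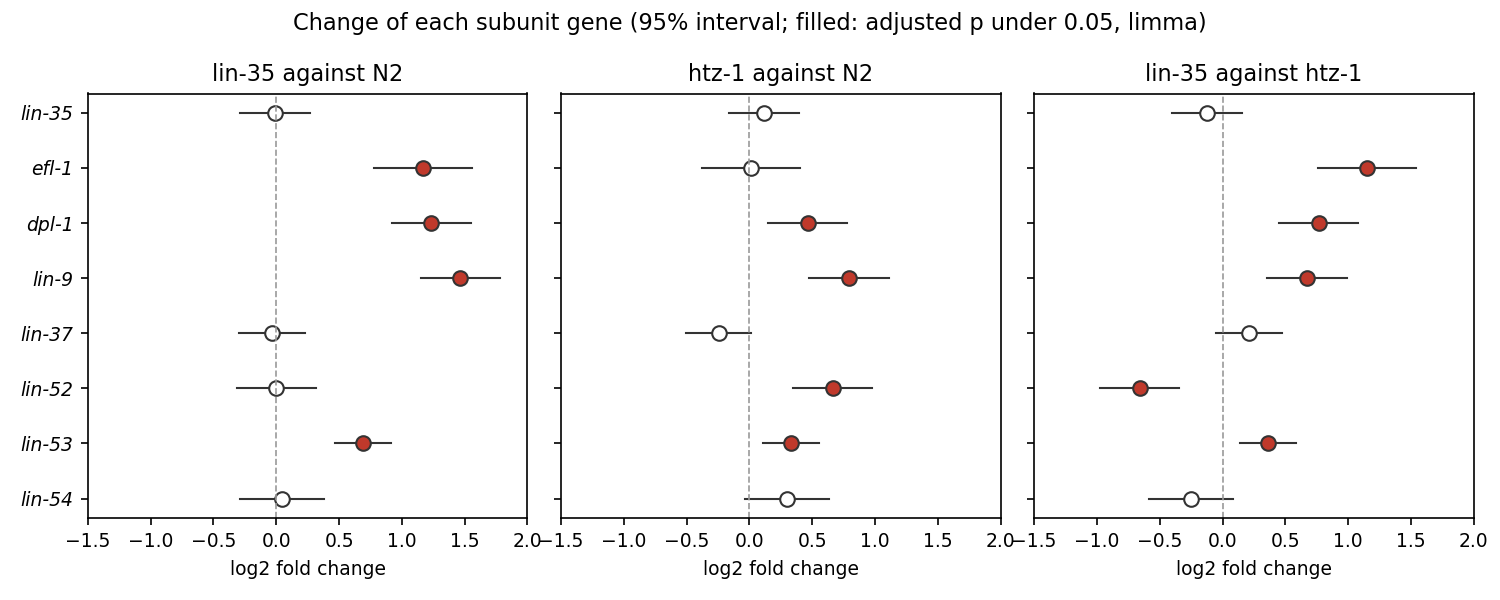
Log2 fold change of each subunit gene with its 95% interval in lin-35 against N2, htz-1 against N2 and lin-35 against htz-1, where filled points passed an adjusted p under 0.05 in limma. In lin-35 against N2 the 4 filled points lie between 0.69 and 1.47 and the 4 open ones near 0, and in htz-1 against N2 the filled points lie between 0.33 and 0.79.

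In htz-1 larvae 4 subunit genes were thus higher than in N2 and 0 were lower (limma), where 15.2% of all tested genes were higher and 16.5% lower. They were lin-9, lin-52, dpl-1 and lin-53, and 3 of the 8 were called without the first htz-1 library. Again 0 were lower at an unadjusted p under 0.05 or in limma-voom. The count of 4 became 0 without the first N2 library, 1 without the second N2 library and 1 without the second htz-1 library. Fewer of all tested genes were called in these fits as well. With 1 library left out the log2 fold change was 0.70 to 0.89 for lin-9 and 0.55 to 0.79 for lin-52. It was 0.33 to 0.61 for dpl-1 and 0.28 to 0.37 for lin-53. The median over the 8 genes was 0.31, against -0.005 over all tested genes. After scaling, both htz-1 libraries lay above both N2 libraries for 5 subunit genes and below them for 1, as they did for 35.4% and 36.8% of all tested genes. Both comparisons share the N2 libraries, so the values stand side by side only as descriptions, and the difference between the mutants rests on their direct test. There, 4 subunit genes were higher in lin-35 than in htz-1 larvae (efl-1, dpl-1, lin-9 and lin-53) and 1 was lower (lin-52), where 15.3% of all tested genes were higher and 14.5% lower. The scaled lin-35 libraries lay above both htz-1 libraries for 5 subunit genes and below them for 2, against 33.5% and 33.6% of all tested genes. Without the first htz-1 library 3 were called higher and 1 lower, without the second 2 were higher and 0 lower, and without the first lin-35 library 0 were lower.

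The order of the transcripts differed between the genotypes. In lin-35 larvae lin-53 (97.1 ± 5.8 RPKM, SD, n = 2) was followed by dpl-1 (25.9 ± 2.8) and efl-1 (24.6 ± 2.3), which overlapped, and then by lin-9 (18.3 ± 0.69), lin-37, lin-35, lin-54 and lin-52 (7.97 ± 0.085). In htz-1 larvae lin-53 (67.0 ± 0.55 RPKM) stood apart, and the other genes ran from dpl-1 (13.3 ± 1.5) to lin-54 (9.28 ± 0.35) with every neighbour in the order overlapping. In N2 larvae lin-53 (53.0 ± 1.7 RPKM) was followed by lin-37 (13.4 ± 0.026) and lin-35 (11.6 ± 0.74), then by dpl-1 and efl-1, which overlapped, by lin-54 and lin-52, which also overlapped, and by lin-9 (5.55 ± 0.41). lin-9 was thus the lowest of the 8 in N2 larvae and the fourth highest in lin-35 larvae.

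Summed over the 8 genes, the libraries held 209 and 211 RPKM in lin-35 larvae, 146 and 143 RPKM in htz-1 larvae and 116 and 118 RPKM in N2 larvae. lin-53 made up 44.4% to 47.9% of this sum in every library. Leaving lin-53 aside, the highest of the other 7 transcripts exceeded the lowest by 3.46 and 3.02 times in lin-35 larvae, 1.49 and 1.79 times in htz-1 larvae and 2.55 and 2.29 times in N2 larvae, so the htz-1 libraries had the narrowest range.

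Ratios within a library do not depend on its size factor and are given without a test. The ratio of efl-1 to dpl-1 RPKM was 0.943 and 0.960 in lin-35 larvae, 0.925 and 0.559 in htz-1 larvae and 0.895 and 1.11 in N2 larvae, so that these partners stood near equal levels in lin-35 and N2 larvae. The ratio of lin-9 to lin-37 was 1.14 and 1.34 in lin-35 larvae, 0.911 and 0.860 in htz-1 larvae and 0.392 and 0.436 in N2 larvae. The order of these MuvB genes was therefore reversed in lin-35 larvae.

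The ratio of lin-52 to lin-37 was 0.513 and 0.565 in lin-35 larvae, 0.893 and 1.15 in htz-1 larvae and 0.547 and 0.503 in N2 larvae, with the htz-1 libraries above the rest. lin-35 RPKM was 0.488 and 0.579 of that of efl-1 in lin-35 larvae, 1.196 and 1.47 in htz-1 larvae and 1.38 and 1.102 in N2 larvae. The pocket protein transcript was thus below the E2F transcript only in lin-35 larvae among these 6 libraries.

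**Figure D3:**
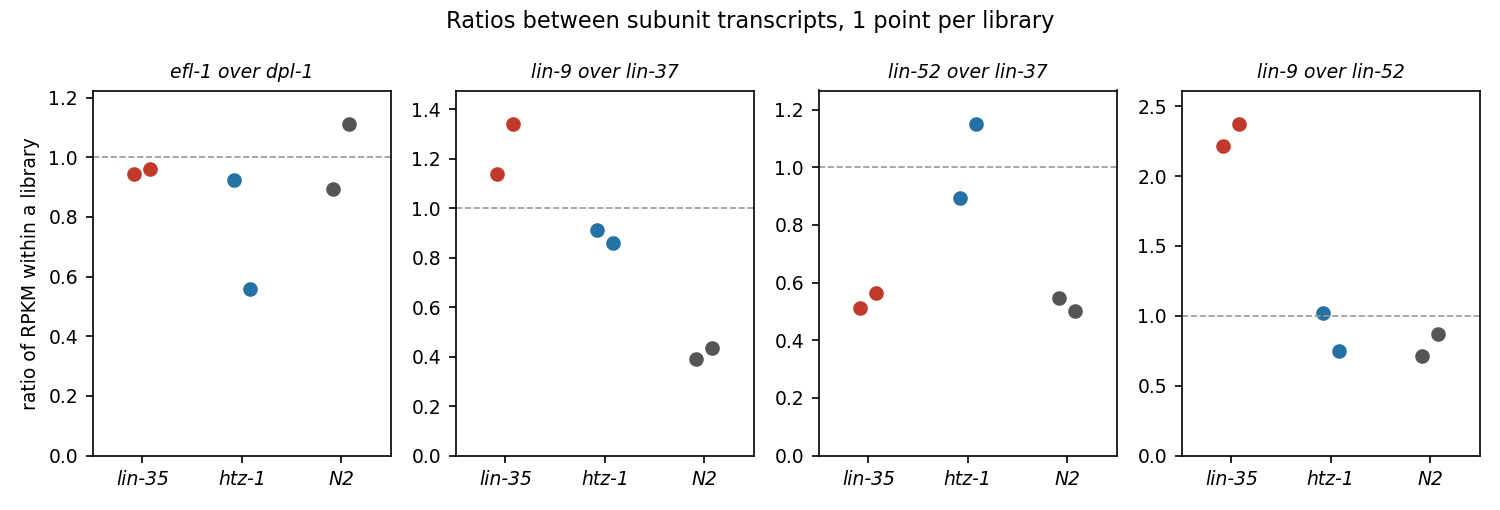
Ratio of RPKM between pairs of subunit transcripts within each of the 6 libraries (vertical axis from 0, 1 point per library, dashed line at equal levels). The ratio of lin-9 to lin-37 is above 1 only in the lin-35 libraries, the ratio of lin-52 to lin-37 is highest in the htz-1 libraries, and the ratio of lin-9 to lin-52 is 2.22 and 2.37 in the lin-35 libraries and at most 1.02 in the others.

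Germ cells make up part of an L3 larva, and germ line markers moved as well. Of 11 such markers 4 were higher in lin-35 than in N2 larvae (glh-1, pgl-1, him-3 and syp-1) and none lower, where 12.1% and 11.6% of all tested genes were, with a median log2 fold change of -0.19. Their summed level was 636 to 695 RPKM in lin-35, 308 to 371 RPKM in htz-1 and 261 to 283 RPKM in N2 larvae. Markers other than glh-1, pgl-1, him-3 and syp-1 went against the direction of this sum in lin-35 against N2. Their log2 fold changes lay between -0.41 (fbf-1) and -0.05 (syp-2) and did not pass the test. In htz-1 larvae 3 of the 11 were higher than in N2 (htp-3, him-3 and syp-1) and none lower, where 15.2% and 16.5% of all tested genes were, with a median of 0.37. In lin-35 against htz-1 4 were higher (glh-1, pgl-1, him-3 and syp-1) and 3 lower (gld-1, fbf-1 and htp-3), where 15.3% and 14.5% of all tested genes were, with a median of -0.55. Without the first htz-1 library 4 were higher and 0 lower in htz-1 against N2, and 3 higher and 2 lower in lin-35 against htz-1. No marker of the tissues described here was at 0 in any library. The marker lists also named elt-7 and opt-2 (intestine), unc-89 (body wall muscle), and elt-3 and dpy-7 (epidermis). These were not found by name among the listed genes. Summed levels of 4 body wall muscle markers, mostly unc-54, were 1195 to 1431 RPKM in lin-35 larvae. They were 1655 to 1729 RPKM in htz-1 and 1731 to 1860 RPKM in N2 larvae. In lin-35 against N2 2 of the 4 were lower (unc-54 and unc-15) and 0 higher, with a median of -0.41, where 11.6% and 12.1% of all tested genes were. In htz-1 against N2 0 were called, where 15.2% of all tested genes were higher and 16.5% lower. There unc-54 (-0.22) and hlh-1 (-0.26) were below 0, and myo-3 (0.05) and unc-15 (0.16) above it. Those of 3 intestine markers were 1217 to 1226 RPKM in lin-35, 901 to 1140 RPKM in htz-1 and 1378 to 1445 RPKM in N2 larvae. That sum was mostly asp-1, which was lower in lin-35 than in N2 larvae (-0.43, adjusted p = 0.0289, limma), whereas elt-2 (0.65, adjusted p = 0.0332) and ges-1 (0.52, adjusted p = 0.0127) were higher, so that the list's median was 0.52 against the direction of its sum. The sums of 6 neuron markers were 404 to 404.5 RPKM in lin-35 and 351 to 364 RPKM in htz-1 larvae. In N2 larvae they were 337 to 349 RPKM. The marker sums of all tissues given here are not scaled, whereas the medians rest on scaled values. Scaling would lower the lin-35 sums (size factors 1.11 and 1.06) and raise the others (0.946 to 0.979). The neuron list had 1 gene higher in lin-35 against N2 (snb-1, at 225 and 216 RPKM in lin-35 and 163 and 154 RPKM in N2 larvae), 1 lower (rab-3) and a median of -0.13, and in htz-1 against N2 1 higher, 2 lower and a median of -0.18, again against the direction of the sum. Levels of 2 epidermis markers summed to 34.6 to 45.0 RPKM in lin-35, 43.8 to 55.1 RPKM in htz-1 and 23.3 to 26.0 RPKM in N2 larvae. Of these, lin-26 was higher than in N2 by 0.67 in lin-35 and 1.23 in htz-1 larvae. The other, elt-1, was at -0.22 and -0.33 and did not pass the test. The part of these tissues in the subunit results was not tested here. For lin-9 alone among the subunits, the study counted transcripts as fluorescent foci in L3 larvae (RNA-FISH). It reports more lin-9 foci in lin-35 mutants than in wild type, in soma as well as germ line.

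The wider E2F and Rb network was described with 5 lists of 48 genes, of which 46 were tested. Over these lists 25 genes were higher and 0 lower in lin-35 against N2, and 20 were higher and 3 lower in htz-1 against N2 (limma), or 15 and 4 without the first htz-1 library. Of all tested genes 12.1% were higher and 11.6% lower in lin-35 against N2, and 15.2% and 16.5% in htz-1 against N2. The counts of each list below are set beside these shares. The lists were chosen with earlier results of these data known, so the shares are not an independent baseline for them. At an unadjusted p under 0.05 1 gene was lower in lin-35 against N2 (hda-1, -0.24), and 0 were in limma-voom. In lin-35 against htz-1 12 were higher and 3 lower, where 15.3% and 14.5% of all tested genes were. The 25 became 16 without the second N2 library, the 20 became 6 or 11 without the first or the second N2 library and 12 without the second htz-1 library, and the 12 became 6 without the second lin-35 library and 5 without the second htz-1 library. The 3 lower became 1 without either N2 library, the first lin-35 library or the second htz-1 library. Among genes of DNA replication that are classical E2F targets, 12 of 14 were higher and none lower in lin-35 larvae, with a median of 0.96, and 9 of 14 were higher and none lower in htz-1 larvae, with a median of 0.61 (8 and 0.54 without the first htz-1 library). mcm-7, a subunit of the replicative helicase, was at 79.3 and 78.5 RPKM in lin-35 larvae, 41.7 and 40.1 RPKM in htz-1 larvae and 25.5 and 26.8 RPKM in N2 larvae, and rose against N2 by 1.40 in lin-35 larvae and 0.63 in htz-1 larvae (adjusted p = 0.000119 and 0.00267, limma). In lin-35 larvae psf-3, of the GINS complex, rose by 1.62, cdt-1, which licenses origins, by 1.26 and mcm-3 by 1.07 (adjusted p of at most 0.00104, limma). In htz-1 larvae rnr-1, of ribonucleotide reductase, rose by 1.05 and pcn-1, the sliding clamp PCNA, by 0.91 (adjusted p of at most 0.00252). Only rnr-2 and cdc-6 of this list did not pass in lin-35 larvae.

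Among 9 tested cell cycle regulators 2 were higher in lin-35 larvae (as were 12.1% of all tested genes), 5 were higher in htz-1 larvae (as were 15.2% of all tested genes, and 4 of the 9 without the first htz-1 library) and none was lower in either (0 and 1 at an unadjusted p under 0.05, limma, the 1 being cdk-4 at -0.46). cye-1 (cyclin E) rose by 0.95 in lin-35 and 0.57 in htz-1 larvae, and its kinase cdk-2 by 0.86 and 0.69 (adjusted p of at most 0.0319, limma). The CDK inhibitor gene cki-2 passed in htz-1 larvae (0.43, adjusted p = 0.0433) and was at 0.33 in lin-35 larvae (adjusted p = 0.116). lin-23, an F-box gene, and the phosphatase gene cdc-14 rose in htz-1 larvae by 0.63 and 0.54 and were lower in lin-35 than in htz-1 larvae by -0.47 and -0.46 (adjusted p of at most 0.0388, limma).

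Of 11 synthetic multivulva class B genes outside DREAM, 4 were higher in lin-35 larvae, where 12.1% of all tested genes were: lin-15B (0.73), lin-36 (0.66), the zinc finger gene lin-13 (0.46) and the Mi-2 gene let-418 (0.39), with an adjusted p of at most 0.037 (limma). In htz-1 larvae 1 of the 11 was higher, tam-1 (0.69, adjusted p = 0.00953, limma), which is below the 15.2% of all tested genes, and 1 was without the first htz-1 library. The median of the list was 0.26 in lin-35 larvae and 0.09 in htz-1 larvae, with no member lower in either comparison. Of the E2F relatives, efl-2 was at 7.02 and 6.44 RPKM in lin-35, 2.82 and 2.81 RPKM in htz-1 and 6.41 and 5.54 RPKM in N2 larvae. It was lower in htz-1 than in N2 larvae, by -0.97 (adjusted p = 0.00395, limma), with a value of -0.01 in lin-35 larvae. The list members efl-3 and cyd-1 were not found by name among the listed genes.

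LIN-53 also serves other chromatin complexes, and of 14 genes of these 8 were higher and none lower in lin-35 larvae (median 0.46), where 12.1% and 11.6% of all tested genes were, while 5 were higher and 2 lower in htz-1 larvae (median 0.14), where 15.2% and 16.5% were. Without the first htz-1 library 2 were higher and 3 lower in htz-1 larvae. The chromatin assembly factor genes chaf-2 and chaf-1 rose in lin-35 larvae by 1.38 and 1.14, and knl-2, which loads centromeric histone, by 0.89 (adjusted p of at most 0.00365, limma). nurf-1, of the NURF remodeller, was at 93.3 and 94.8 RPKM in lin-35, 29.4 and 25.2 RPKM in htz-1 and 58.3 and 52.7 RPKM in N2 larvae. It was thus higher than in N2 in lin-35 (0.58, adjusted p = 0.00632, limma) and lower in htz-1 (-1.02, adjusted p = 0.000939). lin-40, of the NuRD complex, was at 20.8 and 22.3 RPKM in lin-35, 5.01 and 5.24 RPKM in htz-1 and 20.6 and 18.9 RPKM in N2 larvae, and was lower in htz-1 than in N2 larvae by -1.86 (adjusted p = 0.000294, limma).

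**Figure D4:**
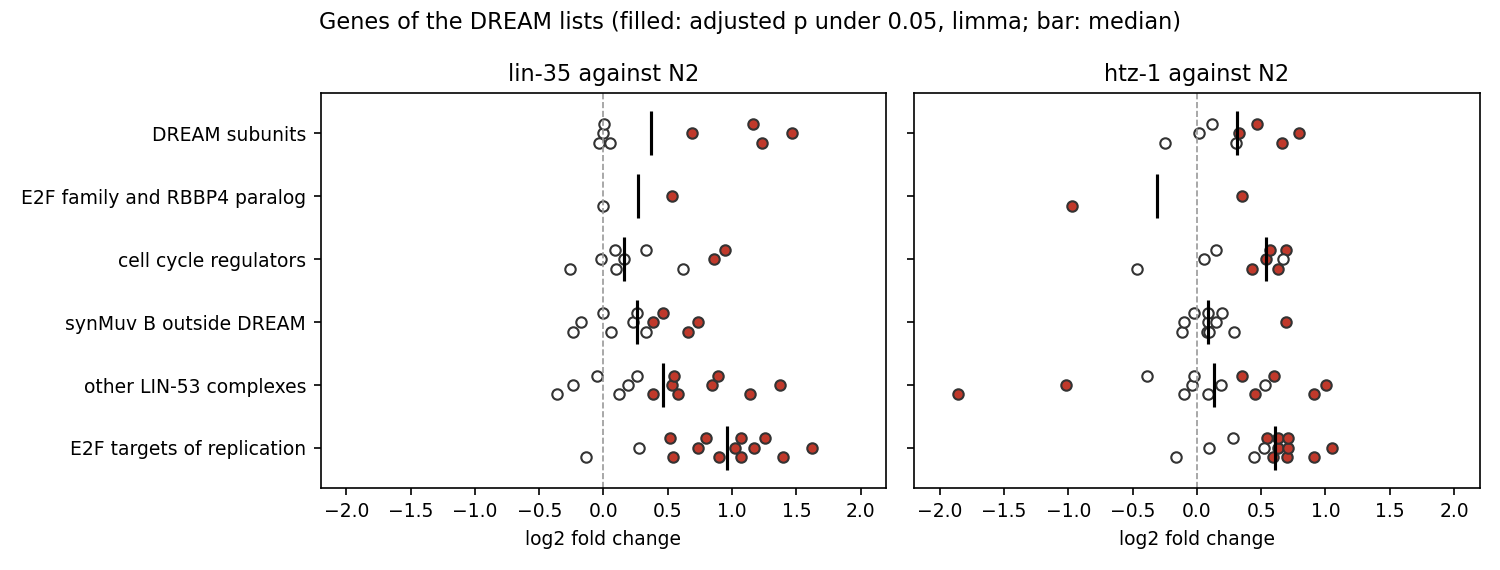
Log2 fold change of every tested gene of the DREAM subunits and the 5 lists in lin-35 against N2 (left) and htz-1 against N2 (right), where filled points passed an adjusted p under 0.05 in limma and the bar marks the list's median. The replication list has the highest median in both, 0.96 and 0.61, and the filled points below 0 in htz-1 larvae are lin-40, nurf-1 and efl-2. Open points also lie below 0 there, such as cdk-4 at -0.46.

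The genes next to the subunit genes on the chromosomes, taken among those in the expression table, were examined to see whether whole neighbourhoods moved. C32F10.4 overlaps lin-35 and T23G7.2 overlaps dpl-1, and both are among the neighbours counted below as higher in htz-1 larvae. Of 14 tested neighbours 2 were higher (rba-1 and unc-32) and 3 lower (asna-1, nra-2 and rpl-12) in lin-35 larvae, and 7 were higher and 2 lower (sec-5 and asna-1) in htz-1 larvae (limma). The share of all tested genes was 12.1% higher and 11.6% lower in lin-35 larvae, near that of the 2 higher neighbours, and 15.2% and 16.5% in htz-1 larvae. In lin-35 against htz-1 0 were higher (1 at an unadjusted p under 0.05, 0 in limma-voom) and 6 were lower, where 15.3% and 14.5% of all tested genes were. Without the first htz-1 library 5 were higher and 2 lower in htz-1 larvae, and 1 was higher and 5 lower in lin-35 against htz-1. Without the first or the second N2 library 1 changed in lin-35 larvae and 2 in htz-1 larvae. Without the first lin-35 library 3 and without the second 2 changed in lin-35 larvae, and without the second htz-1 library 3 changed in htz-1 larvae. Beside lin-9, unc-32 was higher by 0.39 in lin-35 and 0.72 in htz-1 larvae, and asna-1 on the other side was lower by -0.36 and -0.30 (adjusted p of at most 0.0306, limma). Both neighbours of lin-52 were higher in htz-1 larvae as lin-52 was, panl-3 by 0.46 and ZK632.9 by 0.39 (adjusted p of at most 0.0455). In htz-1 larvae C32F10.4, next to lin-35, was higher by 0.69 and fbxa-90, next to efl-1, by 0.96 (adjusted p of at most 0.0267, limma), whereas lin-35 and efl-1 did not pass. In lin-35 larvae nra-2, next to lin-53, was lower by -0.47 and rpl-12, next to lin-54, by -0.43 (adjusted p of at most 0.0222).

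The genes whose pattern over the 6 libraries was most like that of each subunit were found by the root-mean-square difference of mean-centred log2 values. For lin-9 they were Y51B9A.9 (0.0487) and icp-1 (0.0586), a gene of the chromosomal passenger complex, which stood at 42.2 and 43.6 RPKM in lin-35, 26.7 and 22.8 RPKM in htz-1 and 14.4 and 14.9 RPKM in N2 larvae. For efl-1 they were tost-1 (0.0923) and fbxa-4 (0.099), and for dpl-1 M57.1 (0.0611) and gcna-1 (0.0816). The nearest to lin-53 were abcf-2 (0.0301) and the class B gene lin-36 (0.0594), and to lin-52 the proteasome gene rpn-10 (0.0371) and aakg-5 (0.0388). A difference within 0.2 was shared by 44 genes for efl-1 and 74 for lin-9, against 518 for lin-53, 756 for lin-52, 2389 for lin-54, 3112 for lin-37 and 3349 for lin-35, and the count for dpl-1 lay between those for lin-9 and lin-53. Among the subunits themselves lin-35 and lin-54 were closest (0.135). Genes that change little lie close together on this measure, as the high counts for lin-35 and lin-54 show. The closeness of lin-35 and lin-54 therefore says only that both changed little. Of the genes that rose in lin-35 larvae, dpl-1 and lin-9 were the closest (0.223). These likenesses are descriptions over 6 libraries of 3 genotypes.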

How the data were processed

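RNA-seq of 6 libraries was analysed, and the ChIP-seq libraries of the series were not analysed here. By the study's methods and the submitters' processing notes, the authors aligned reads with BWA to ce10, assigned them to genes of a lifted exon model by HTSeq's union mode, and compared genotypes with DESeq2, excluding genes that oscillate during larval development. The deposited values used are the RPKM of each library, and the authors' averages, fold changes and p-values were not used. From the RPKM steps 100% of values of the 15568 genes came out as whole reads (tolerance 0.002 reads).

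The test was limma 3.58.1 (R 4.3.3) with a variance trend on scaled (median-of-ratios) log2(RPKM + 0.5), over 9679 genes and all 3 genotypes (degrees of freedom 3 residual, 4.01 prior; two-sided; Benjamini-Hochberg at 0.05). Alternatives were the deposited RPKM, quantile normalization, a flat variance prior, limma-voom on the recovered reads, pseudocounts of 0.1 and 1, a fit of only the compared genotypes, a replicate block, all genes unfiltered, and each library left out (a lone library was then taken to vary as the others do).

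Symbols came from the RefSeq WBcel235 table (15397 matched, 171 not), which differs in build and gave only names, neighbours and overlaps. Named genes are the 8 subunits, htz-1, in each list the up to 4 of smallest p in lin-35 and 2 in htz-1 against N2, all efl-2 and rba-1 values, called neighbours and the 2 genes nearest in pattern. The tissue markers, cdc-14, cdk-4, hda-1, rnr-2, cdc-6 and the overlapping genes were named after their values were seen. Members and lists were chosen with earlier results of these data known.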

Additional observations from a re-analysis of the deposited data

How the results depend on the processing

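In lin-35 against N2 the calls of efl-1 (1.06 to 1.34), dpl-1 (1.150 to 1.41), lin-9 (1.35 to 1.64) and lin-53 (0.60 to 0.87) held under all 15 alternatives. In lin-35 against htz-1 those of efl-1 (0.94 to 1.36) and dpl-1 (0.62 to 0.93) did so. Leaving out 1 library at a time gave 4 to 4 subunit genes higher and 0 to 0 lower in lin-35 against N2, 0 to 4 higher and 0 to 0 lower in htz-1 against N2, and 2 to 4 higher and 0 to 1 lower in lin-35 against htz-1. In htz-1 against N2 the count was 0 without N2 replicate 1, 1 without N2 replicate 2 and 1 without htz-1 replicate 2. With no variance trend 2 subunit genes were higher there. In each comparison fewer of all tested genes were called as well when a library of a compared genotype was left out. Over the 5 lists the same libraries left out gave 16 to 26 genes higher and 0 to 0 lower in lin-35 against N2, 6 to 20 and 3 to 4 in htz-1 against N2, and 5 to 9 and 1 to 3 in lin-35 against htz-1. Changed neighbours ranged from 1 to 6, from 2 to 9 and from 4 to 6. With the deposited RPKM 20 list genes were higher and 1 lower in lin-35 against htz-1, and 1 was lower with no variance trend and with only the 2 genotypes compared. In lin-35 against N2 quantile normalization gave 3 changed neighbours and no variance trend 2. After scaling, the summed mean level of the 8 genes was 194.0 RPKM in lin-35, 150.3 in htz-1 and 122.0 in N2 larvae.

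Values near 0 that missed the test changed sign. In lin-35 against N2, lin-35 was at 0.17 and lin-37 at 0.14 with the deposited RPKM, lin-35 at 0.0107 with limma-voom, lin-52 at -0.14 and lin-54 at -0.0949 with quantile normalization, and lin-52 at -0.0044 with only the 2 genotypes compared. With 1 library left out they ranged from -0.0682 to 0.0436 (lin-35), -0.0883 to 0.0144 (lin-37), -0.0555 to 0.0441 (lin-52) and -0.0685 to 0.16 (lin-54). efl-1 in htz-1 against N2 ranged from -0.19 to 0.23, and lin-35 in lin-35 against htz-1 was 0.0438 with the deposited RPKM. The causes were not tested. The replicate block changed no subunit call (4 higher, 4 higher, and 4 higher with 1 lower). The sample names of the same-numbered lin-35 and N2 libraries share a code whose meaning is not given, so whether these libraries form pairs is not established. The deviations of same-numbered libraries correlated at 0.318 (lin-35 and N2), 0.0992 (htz-1 and N2) and 0.0162 (lin-35 and htz-1). With 2 libraries per genotype, p-values and intervals are limited by their number.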
